A study of Homo sapiens with 8 samples.

Results

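The regions described here are the stretches of chromosomes 1 to 22 that were called accessible in 4 of 4 libraries of mitotic control cells. Each of the 4 libraries had its own deposited list of ATAC-seq peaks. Peaks sharing at least 1 bp were merged across the lists into 372944 regions, and the 53666 regions with a peak in every list (14.4%) were kept. They were ranked by pileup, the height of fragment coverage over a peak: the highest peak of a region in each list was given its percentile among all peaks of that list, and the 4 percentiles were averaged. The members were thus chosen by the number of lists that called them and ordered by pileup, so the order itself is a description and was not tested. The series holds 8 libraries, and the 4 described here all came from the human line hTERT RPE-1 with the genotype Plk1-/- EGFP-Plk1as, a telomerase-immortalised retinal pigment epithelial line that lacks its own Polo-like kinase 1 and carries an EGFP-tagged, analog-sensitive kinase instead. The cells had been held in prometaphase for 16 h in 5 µM STLC, an inhibitor of the kinesin Eg5, collected by shake-off, and kept in STLC with 0.5% DMSO for 2 h. Each reaction used 50000 cells, and above 95% of the cells were in mitosis. The design text gives 4 biological replicates, which share a genotype and a line. No interphase library is among them, so a level here is a level in mitosis and not a change on entering it.

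In ATAC-seq the transposase Tn5 cuts and tags DNA that is not shielded by nucleosomes or compacted chromatin. During mitosis chromosomes condense and most transcription stops, yet promoters and some enhancers are known to stay open to Tn5. RNA polymerase III, which makes tRNAs and other small RNAs, uses promoters that lie inside or just before the short genes it reads, whereas RNA polymerase II genes carry their promoter before the start.

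Transfer RNA (tRNA) genes and starts of protein-coding genes were frequent among the highest-ranked regions. Examples of each are printed from RefSeq, build GRCh38.p14, 5′ to 3′. The tRNA genes were those that lay, with 12 bases on each side, before a start in the promoter table. There were 8 of them, and the 4 printed were picked as examples after their ranks were seen. The capitals mark the letters GTTCNANNC, the core of the B box, to which the polymerase III factor TFIIIC binds. The strand shown is the one with those letters, so their presence is no finding. On either strand, 7.40% of 33725 listed promoter windows of 300 bases hold them.
TRT-TGT6-1 (threonine tRNA, chr5:181191675-181191770, minus strand, region ranked 9): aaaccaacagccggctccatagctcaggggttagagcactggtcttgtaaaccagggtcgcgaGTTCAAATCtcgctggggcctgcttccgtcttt
TRG-CCC2-2 (glycine tRNA, chr16:636724-636818, minus strand, region ranked 226): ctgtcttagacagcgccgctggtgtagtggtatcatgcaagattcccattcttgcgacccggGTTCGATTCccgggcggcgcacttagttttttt
TRR-ACG2-1 (arginine tRNA, chr3:45688987-45689083, minus strand, region ranked 449): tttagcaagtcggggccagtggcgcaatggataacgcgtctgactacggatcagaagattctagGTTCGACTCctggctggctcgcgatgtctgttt
TRP-TGG3-2 (proline tRNA, chr14:20684004-20684099, plus strand, region ranked 2268): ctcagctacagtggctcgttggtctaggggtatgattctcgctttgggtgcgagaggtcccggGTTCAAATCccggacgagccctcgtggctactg

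The starts of protein-coding genes below give the 150 bases before the start and lay in regions ranked 33 to 39 that held no tRNA gene. They were chosen for the letters marked in capitals, after those letters had been searched. The letters are CACGTG (E-box), CCAATCA (NFY), GGGGCGGGG (SP/KLF) and, for NRF1, GCGC and TGCGC with any base between, all searched on both strands. Over all 21156 listed starts of protein-coding genes, windows of 300 bases held them in 8.25%, 7.80%, 20.9% and 7.44% of cases.
NAPA (chr19:47515064-47515213, minus strand, E-box): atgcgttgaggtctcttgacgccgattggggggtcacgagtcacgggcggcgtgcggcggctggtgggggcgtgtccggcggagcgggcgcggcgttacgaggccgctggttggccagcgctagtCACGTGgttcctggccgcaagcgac
CIRBP (chr19:1269182-1269331, plus strand, NFY and SP/KLF): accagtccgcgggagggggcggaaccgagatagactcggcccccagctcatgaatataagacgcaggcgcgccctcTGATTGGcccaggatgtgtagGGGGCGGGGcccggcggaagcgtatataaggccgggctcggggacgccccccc
ORC6 (chr16:46689509-46689658, plus strand, NRF1 and NFY): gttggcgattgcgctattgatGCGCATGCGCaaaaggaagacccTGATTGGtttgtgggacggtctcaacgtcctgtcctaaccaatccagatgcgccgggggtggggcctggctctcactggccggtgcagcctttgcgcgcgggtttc
ALDH6A1 (chr14:74084454-74084603, minus strand, NFY on each strand): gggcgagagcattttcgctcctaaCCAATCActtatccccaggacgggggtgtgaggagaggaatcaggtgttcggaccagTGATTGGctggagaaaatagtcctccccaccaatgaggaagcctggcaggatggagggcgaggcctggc

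The 4 lists differed in length and scale. They held 149172, 157168, 196184 and 197782 peaks in replicates 1 to 4, and peaks inside the 53666 shared regions made up 33.0% ± 4.49 of a list's peaks and 54.4% ± 5.64 of its covered length (SD, n = 4 lists). Replicate 3 had the highest pileup of the 4 in 991 of the first 1000 regions and replicate 4 the lowest in 986. Pileup is therefore compared between regions within a list, and the 4 values of a region are not read as a spread of accessibility. Across the 53666 regions the order by pileup was shared between lists, with a Spearman correlation from 0.807 (replicates 1 and 4) to 0.913 (replicates 2 and 3), over points that share the genome and the caller. The lists give no read totals, so depth is unknown and no interval that needs it is given.

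Regions in all 4 lists differed from those in fewer lists in place and width as well as in height. Gene-end regions are those with at least 1 base no farther than 1 kb from the first or the last annotated base of a protein-coding gene. Gene-end regions made up 21.1% of the regions in 4 lists, 4.80% of the 41750 in 3 lists just outside the rule, 3.56% of the 67302 in 2 lists and 2.72% of the 210226 in 1 list. The median span was 1336 bp in 4 lists against 770, 512 and 234 bp, and the median percentile of pileup was 71.3 against 44.6, 38.4 and 32.4. Merging over more lists can itself lengthen a region, and the part of this in the spans was not tested. Of the 53666 regions, 11329 were gene-end regions, 26069 lay elsewhere over an annotated gene of any kind and 16268 overlapped no gene. Their median percentiles of pileup were 95.0, 66.7 and 58.8. In every list the gene-end regions were highest, with a median pileup of 39.97, 35.23, 44.73 and 27.34 in replicates 1 to 4, against 12.18, 14.7, 14.2 and 13.56 in regions over no gene.

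The makeup changed with rank. Among the first 1000 regions 79.9% were gene-end regions, 17.6% lay elsewhere over genes and 2.5% over no gene. When each list ranked its own peaks, 79.2% ± 1.50 of its first 1000 were at gene ends and 2.73% ± 0.655 over no gene (SD, n = 4 lists). Of those peaks, 91.7% ± 1.17 lay in the first 1000 regions of the joint order. Each list is 1 of the 4 averaged in that order, so this overlap is partly built in. The annotated start of a protein-coding gene was covered in 71.8% of the first 1000 regions and in 17.2% of all regions. Starts of 2 genes on opposite strands shared a region in 20.6% of the start-covering regions in the first 1000 and in 10.5% of all start-covering regions. The first 100 regions stood apart from the next 900 in that gene ends were fewer, at 66, and tRNA genes lay under 34. Ranked instead by −log10 q the number with a tRNA gene among the first 100 was 24, and ranked by fold enrichment over background it was 6.

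**Figure D1:**
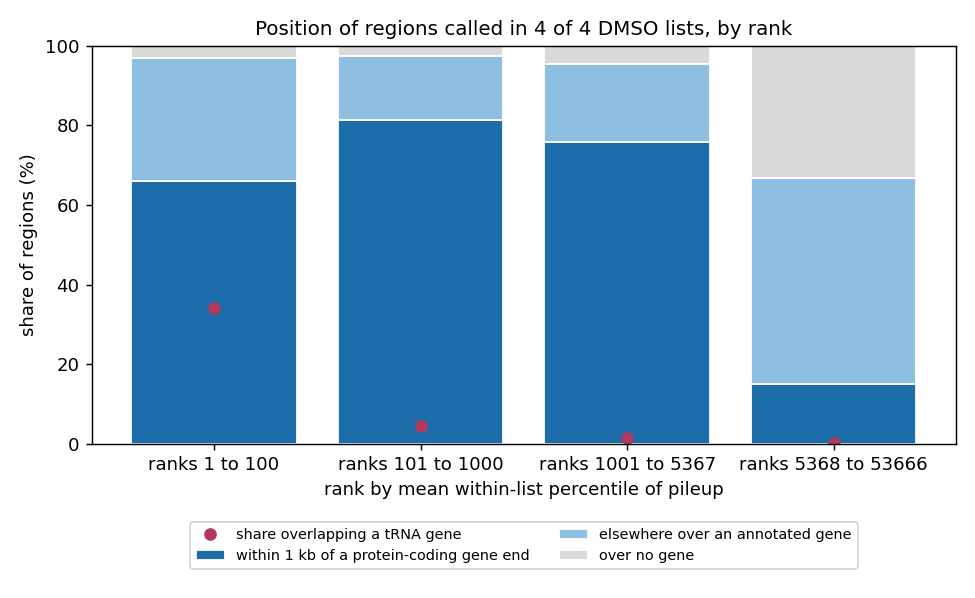
Share of regions (vertical axis, percent) within 1 kb of a protein-coding gene end, elsewhere over an annotated gene, or over no gene, in 4 ranges of rank by pileup (horizontal axis). Red points give the share that overlapped a tRNA gene, which was 34% in the first 100 regions, 4.44% in the next 900 and 0.182% below the top 10%.

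The region ranked first in all 4 lists lay inside RNA45SN2, a copy of the ribosomal RNA precursor gene, at chr21:8213007-8213538. Its pileup was 470.74, 422.55, 493.84 and 398.05 in replicates 1 to 4, and its fold enrichment was 20.0. The ribosomal RNA genes exist in many near-identical copies, so reads from other copies may be counted at this position and its level is uncertain. Next came a region at chr5:181221535-181223910 over the start of TRIM41, a ubiquitin ligase gene, and 2 tRNA genes, for lysine and valine, with pileups of 360.11, 348.27, 478.91 and 316.75. The region ranked 3, at chr12:124939119-124940922, held an alanine and an aspartate tRNA gene and no other gene, with pileups of 351.06, 317.41, 476.28 and 286.45. In these 3 regions and in the rest of the first 20, replicate 4 was the lowest and replicate 3 the highest. Of the first 20 regions, 15 held at least 1 tRNA gene. The other 5 were RNA45SN2, the ends of INPP5A and SDR42E2, the shared start of ACTR1A and SUFU, and the noncoding genes LINC02449 and FAM86FP on chromosome 12.

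**Figure D2:**
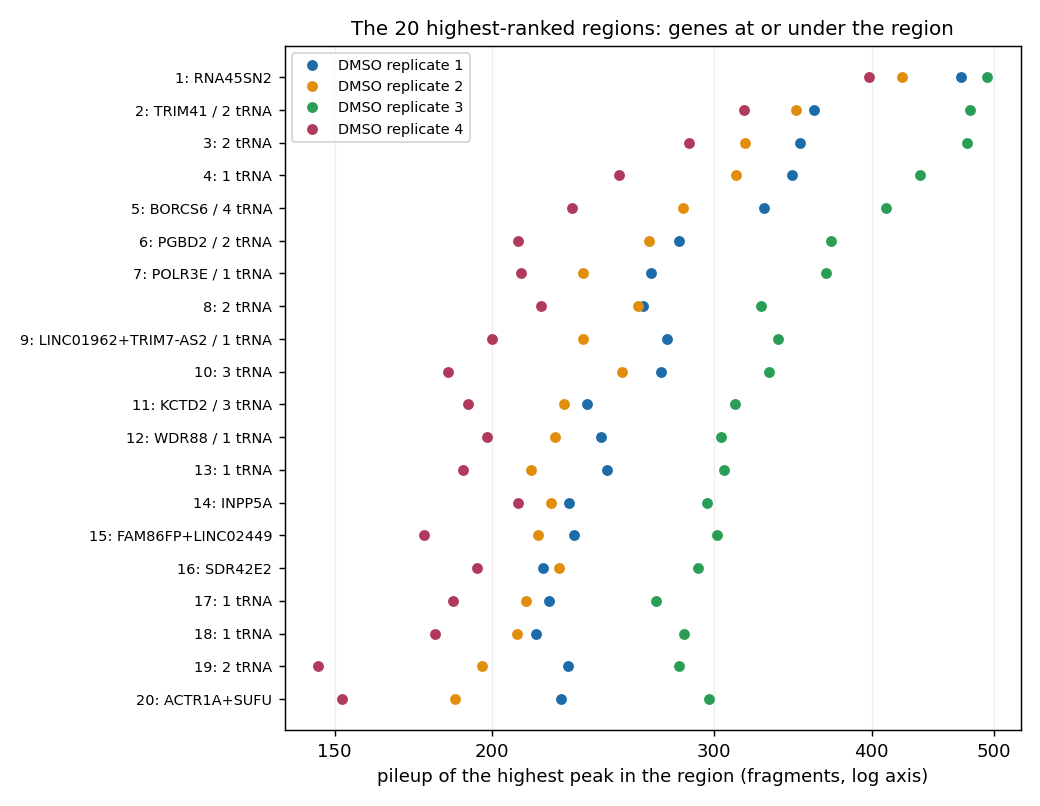
Pileup of the highest peak (horizontal log axis, fragments) in each of the first 20 regions, named by the genes at or under them, with 1 point per DMSO replicate. RNA45SN2 spans 398.05 to 493.84, and the points of replicate 3 lie to the right of the other 3 in every region shown.

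The tRNA genes supply the adaptors that read the genetic code, and many lie in clusters. Of 439 tRNA genes in the RefSeq table on these chromosomes, 288 (65.6%) lay under a region called in all 4 lists, spread over 222 regions, and 126 overlapped no peak in any list. Among other genes of 200 bp or less the count was 347 of 6231 (5.57%). In the first 1000 regions the counts were 120 of 439 (27.3%) and 29 of 6231 (0.465%). The median pileup of the 222 tRNA regions was 70.9, 61.7, 81.9 and 48.0 in replicates 1 to 4. Regions over starts of protein-coding genes had medians of 44.0, 38.8, 50.2 and 29.6, and all 53666 regions 14.2, 16.6, 16.4 and 15.2. Thus tRNA regions were above start regions in each of the 4 lists. Their median fold enrichment was also above that of start regions in each list, for example 4.54 against 4.10 in replicate 1 and 4.37 against 3.45 in replicate 4. Some tRNA regions also cover a protein-coding start, and the tRNA signal in those was not separated.

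By amino acid, the share of tRNA genes under a region ran from all 8 genes of the initiator methionine tRNA, which starts translation, to 11 of 29 for cysteine. Proline had 19 of 20, threonine 18 of 20, and arginine and serine 21 of 26 each, whereas asparagine had 11 of 26 and glycine 16 of 33. Arginine tRNA genes were the most frequent in the first 100 regions, with 10 genes, followed by threonine with 7. Near-identical tRNA genes share reads that a short-read mapping cannot place, so a gene without a call is uncertain. Clusters differed: all 18 genes at chr17:8119155-8227064 were under a region and 17 were in the first 100. At chr5:181097070-181222467, 13 of 17 were called with 9 in the first 100. Neighbouring genes can lie under the same region and then share its rank: those 18 genes lay under 6 regions and those 13 under 8. At chr1:161399700-161612029 only 9 of 32 were called and none was in the first 1000, and at chr7:149546540-149707740 it was 3 of 13. On chromosome 6 the largest cluster, chr6:28474552-28989083, had 35 of 43 genes called but none in the first 100. Lone genes, with no other tRNA gene within 100 kb, were called in 59 of 81 cases (72.8%) and clustered genes in 229 of 358 (64.0%). The 4 printed genes carry the B box letters alike and lay in regions of different height. TRT-TGT6-1 lay in a region with pileups of 275.12, 235.98, 337.18 and 199.95, and the region of TRP-TGG3-2, beside the start of the ribonuclease gene ANG, had 76.26, 70.76, 93.62 and 47.4. The latter region also held the tRNA genes TRT-TGT5-1 and TRY-GTA5-5, so its height is not that of TRP-TGG3-2 alone. Of the 4 not printed, the isoleucine gene TRI-TAT2-2 was lowest, at rank 13856, with 26.36, 23.95, 27.83 and 18.22.

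Calls at other small RNA genes varied by class. RMRP, the RNA of the endonuclease RNase MRP, lay in the region ranked 205, with pileups of 143.72, 129.95, 172.31 and 95.38. RN7SL1, the RNA of the signal recognition particle, ranked 791, and RPPH1, the RNA of RNase P, ranked 1247. RN7SK, which holds the elongation factor P-TEFb inactive, ranked 4204 with pileups of 56.02, 51.98, 71.29 and 39.27. The spliceosomal RNA genes RNU4-1 and RNU4-2 shared the region ranked 736, and RNU12 lay in that ranked 1139. All 4 vault RNA genes and all 4 Y RNA genes were called, none of them in the first 1000. Small nuclear RNA genes were called in 26.5% of 151 cases, microRNA genes in 10.6% of 1793, and small nucleolar RNA genes, which mostly sit in introns and are cut from their host's transcript, in 2.61% of 1150.

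**Figure D3:**
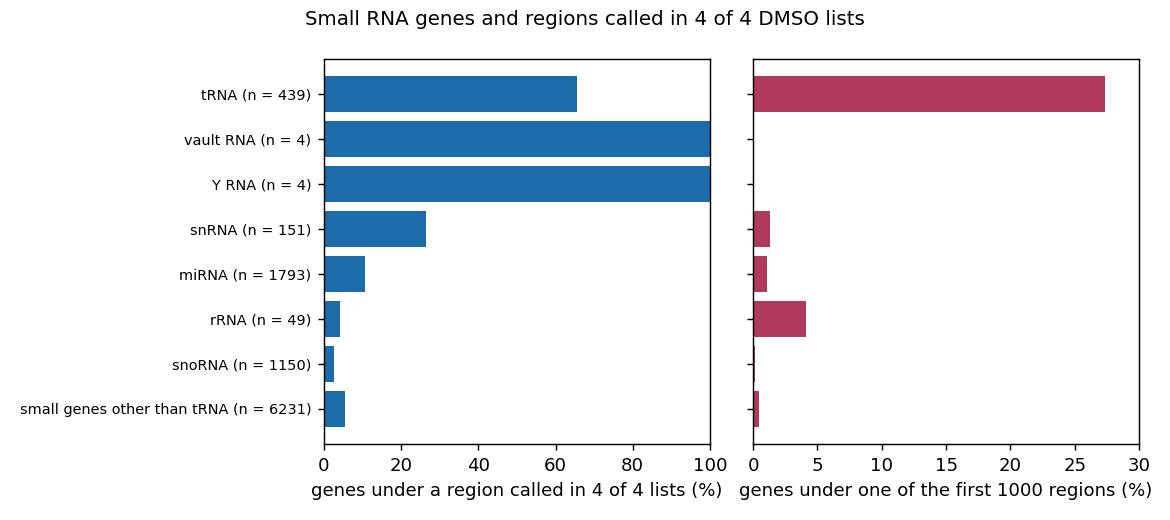
Share of genes of each small RNA class (percent, horizontal axes; n is the number of genes) under a region called in 4 of 4 lists on the left and under one of the first 1000 regions on the right. The tRNA bars reach 65.6% and 27.3%, and the bars for other small genes 5.57% and 0.465%.

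Over protein-coding genes as a whole, 12490 of 19126 (65.3%) had a region called in all 4 lists at an end. The figure was 5094 (26.6%) for regions in the top 10%, that is the first 5367, and 1048 (5.48%) for the first 1000. The first 20 gene-end regions ranged from rank 2 to rank 38, and 11 of them also held tRNA genes. Besides TRIM41 these were BORCS6, of a complex that positions lysosomes, with 4 tRNA genes (rank 5; pileups 328.32, 283.33, 410.7 and 231.31), and PGBD2, derived from a transposase, with 2 (rank 6). POLR3E, which encodes a subunit of RNA polymerase III itself, held a leucine tRNA gene in its region (rank 7; 267.12, 236.23, 368.31 and 210.74). WDR88, the nucleosome-binding HMGN4, AGBL5, an enzyme that trims glutamates from tubulin, the mitochondrial polymerase POLG, the clock gene PER1, the pair ALOXE3 and HES7, and the peptidase DPP9 were the rest.

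The gene-end regions free of tRNA genes began with INPP5A, an inositol phosphatase, at chr10:132536796-132538450, with pileups of 230.08, 222.61, 296.19 and 209.77. SDR42E2 followed at rank 16. The start shared by ACTR1A, the core subunit of the dynein activator dynactin, and SUFU, a brake on Hedgehog signalling, had 226.78, 186.93, 297.03 and 152.19. CDCA2, which brings phosphatase PP1 to chromosomes at the end of mitosis, shared a region with KCTD9 on chromosome 8 (rank 22; 208.36, 192.45, 285.01 and 172.66). MBOAT7 shared its region with TSEN34, a subunit of the tRNA splicing endonuclease, at rank 30. NAPA, which recycles SNARE complexes, had pileups of 199.22, 196.97, 236.21 and 142.92 at chr19:47514514-47515909. CIRBP, an RNA-binding protein induced by cold, had 229.4, 170.99, 270.74 and 129.82 at chr19:1268382-1269804. ORC6, a subunit of the origin recognition complex, and VPS35, of the retromer, shared a region at chr16:46688659-46690133 with 187.61, 177.48, 230.93 and 152.14. PCNT, the centrosome scaffold pericentrin, closed the 20 with C21orf58 (196.64, 174.45, 243.85 and 136.5). The next gene-end region, just outside, was the start shared by ALDH6A1 and LIN52, the latter a subunit of the DREAM complex, at rank 39 (176.53, 179.4, 249.55 and 141.76).

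Strand was taken from the promoter table, which allowed the start of a gene to be set against its other end. Of 12941 protein-coding genes of at least 5 kb, 8736 (67.5%) had a region in 4 of 4 lists at the start and 1216 (9.40%) at the other end. In the first 1000 regions the counts were 778 and 35. Starts thus made up most of these gene ends with a region.

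The 300-base windows around listed starts differed by rank in base composition and in motif letters. A listed start lay in a region of all 4 lists in 12699 of 21156 cases (60.0%). Median GC content was 67.7% for the 1130 starts in the first 1000 regions, 67.3% for the rest of the top 10%, 65.0% below it and 54.3% for the 8457 starts in no such region. The ratio of observed to chance CpG was 0.885, 0.864, 0.817 and 0.332 in the same order. The letters of NRF1, a factor of genes for mitochondria and growth, were in 23.9%, 14.7%, 7.19% and 1.57% of windows, a share that fell at each step. Those of the cyclic AMP response element, TGACGTCA, were in 6.90%, 3.78%, 2.19% and 1.02%. NFY letters, as in CIRBP and ORC6 above, were in 15.9%, 10.3%, 6.88% and 6.18%, and the E-box in 14.7%, 10.6%, 8.81% and 5.65%. ETS letters (CCGGAAG) separated called starts from others but did not grade with rank, at 17.3%, 18.7%, 18.7% and 4.46%. The opposite order held for TATAAA, the TATA box, with 3.27%, 4.20%, 5.56% and 16.5%, and for the AP-1 letters TGANTCA, with 3.01%, 4.11%, 5.05% and 8.41%. GC content moved with all of these. Within windows of 50% to 70% GC, NRF1 letters were still in 21.9%, 15.4%, 8.19% and 2.00%, and NFY letters in 20.2%, 13.2%, 8.43% and 6.07%. The contrast of the TATA box was smaller there, at 2.61%, 4.25%, 5.39% and 8.73%, and the AP-1 letters were in 3.19%, 4.64%, 5.23% and 7.30%. These are matches of letters and do not show that a factor was bound. The order of ranks that they are set against came from pileup itself.

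**Figure D4:**
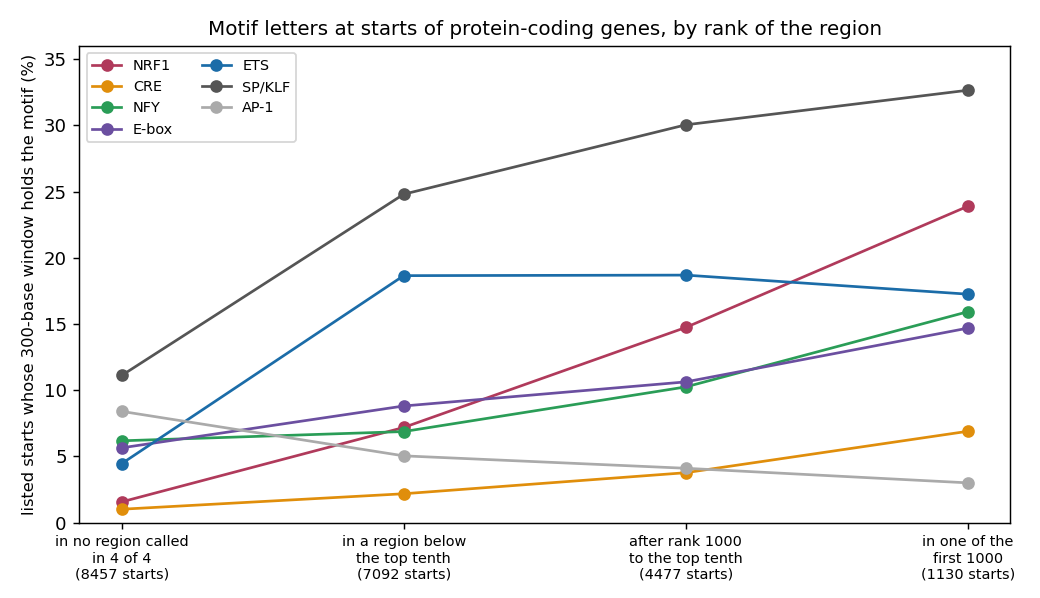
Share of 300-base windows at listed starts of protein-coding genes that hold each motif's letters (vertical axis, percent), for 4 groups of starts ordered by the rank of their region (horizontal axis, with the number of starts). NRF1 rises from 1.57% to 23.9% from left to right, and AP-1 falls from 8.41% to 3.01%.

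Marker genes were read against the cell line's label. All 7 genes of the cultured line had a gene-end region in every list: VIM at rank 103, FN1 at 968, CCN2 at 1696, CAV1 at 2803, and CDH2, KRT8 and KRT18, the last 2 sharing a region at rank 8807. KRT8 also had a listed start in the region ranked 5966. VIM, the intermediate filament protein of mesenchymal cells, had pileups of 146.54, 146.86, 209.22 and 127.34. Of 10 genes of differentiated retinal pigment epithelium, 3 were called, PMEL, MITF and OTX2, with none in the top 10%. PMEL had 41.32, 33.06, 38.91 and 30.79. RPE65, TYR and TTR had no peak at an end in any list, BEST1 and TYRP1 had one in 1 list, and RLBP1 and LRAT in 2. The visual-cycle genes RPE65, RLBP1 and LRAT, which define the tissue, were thus not called in all lists. In the other lists the counts were 2 of 4 for blood (CD3E and SPI1, not PTPRC or HBB), 0 of 5 for hepatocyte (ALB, APOA1, SERPINA1, CYP3A4 and FGB), 2 of 5 for muscle (DES and ACTC1, not MYH6, MYOD1 or TNNT2) and 0 of 5 for pluripotent cells (POU5F1, NANOG, LIN28A, DPPA4 and ZFP42). Of 4 neuronal genes, SNAP25 was called at rank 1597 with 86.94, 78.5, 96.78 and 58.87, and GAD1 only at a listed start, at rank 12939. RBFOX3 had a peak at an end in 2 lists and NEUROD1 in 1, so neither was called. Of the uncalled genes, HBB, MYH6, POU5F1 and ZFP42 had one in 3 lists, SERPINA1 and LIN28A in 2, and CYP3A4, TNNT2 and NANOG in 1. PTPRC, ALB, APOA1, FGB, MYOD1 and DPPA4 had none in any list. GATA1 and SYP are on the X chromosome and were not measured. Among all 19126 genes 65.3% were called, so a call by itself is common.

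For the gene lists that follow, a gene is given by its highest gene-end region, which can lie at either end of the gene. Among the genes named below, the cases in which a listed start lay in another called region are given. For genes not named, such cases are not given. Many genes, FOSL1, HMGB2 and TEAD1 among them, have no entry in the promoter table, so for them the end was not assigned. Genes of basic cell upkeep were nearly all called. For housekeeping genes the count was 25 of 25, with 19 in the top 10%, where all genes give 26.6%. GAPDH, the glycolytic enzyme, shared the region ranked 44, at chr12:6532330-6535116, with the far end of NCAPD2, a subunit of condensin I, which compacts mitotic chromosomes. The pileups of that region were 196.06, 172.31, 237.97 and 130.45. The 1 listed start of GAPDH lay in no region called in all 4 lists. A listed start need not be the outermost end of a gene, and which end of GAPDH the shared region covers was not assigned. SDHA (rank 188) and SNRPD3 (680) followed, and PSMB4, a proteasome subunit, was lowest with 14.3, 13.54, 14.97 and 14.31. Translation factors were called in 17 of 17 cases with 14 in the top 10%, led by EIF5A (148.48, 142.82, 197.91 and 123.08), EIF1 and EEF1D, with EIF4A2 lowest at rank 11482. Splicing factors were called in 22 of 24 cases with 17 in the top 10%. U2AF2, which recognises the end of introns, ranked 42 (202.84, 171.25, 254 and 129.19), HNRNPA1 61 and HNRNPU 682, and SNRPD1 was lowest at rank 27743. U2AF1 had no peak at an end in any list; the build holds a near-identical copy of it, so this is uncertain. HNRNPL had none within 1 kb of its outermost ends, but a further listed start of it lay in the region ranked 40 (194.55, 175.26, 232.49 and 136.6).

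Genes that build mitotic chromosomes and the spindle were read against the same shares of all genes, 65.3% called, 26.6% in the top 10% and 5.48% in the first 1000. Of 19 chromatin architecture genes 18 were called, 16 of them in the top 10%. The region shared with GAPDH lies at the far end of NCAPD2, and its listed start lay in the region ranked 1048, at chr12:6492876-6494585, with pileups of 105.75, 85.29, 119.34 and 61.27. Next in the list by gene-end region were HMGB2 (rank 394, with 124.38, 101.98, 148.59 and 95.87) and TOP2A. TOP2A, the topoisomerase that untangles sister chromatids, ranked 412, with 115.45, 100.79, 167.68 and 94.02. H3-3B (547), CTCF (632) and SMC3 (904) also ranked above the NCAPD2 start. HMGB1 had its gene-end region at rank 1227, but a listed start of it lay in the region ranked 213 (125.06, 132.93, 190.5 and 105.7). The condensin subunit NCAPH was lowest, at rank 8496, and SMC2 was called only at a listed start, at rank 4123. All 23 mitosis genes were called, with 12 in the top 10% and 1 in the first 1000. That gene was ECT2, which activates RhoA for cytokinesis, with 112.68, 85, 124.73 and 69.79. ANLN (rank 1480) and the checkpoint kinase BUB1 (rank 1506) followed, and BIRC5, which encodes survivin, was lowest with 19.61, 15.62, 27.56 and 16.64.

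**Figure D5:**
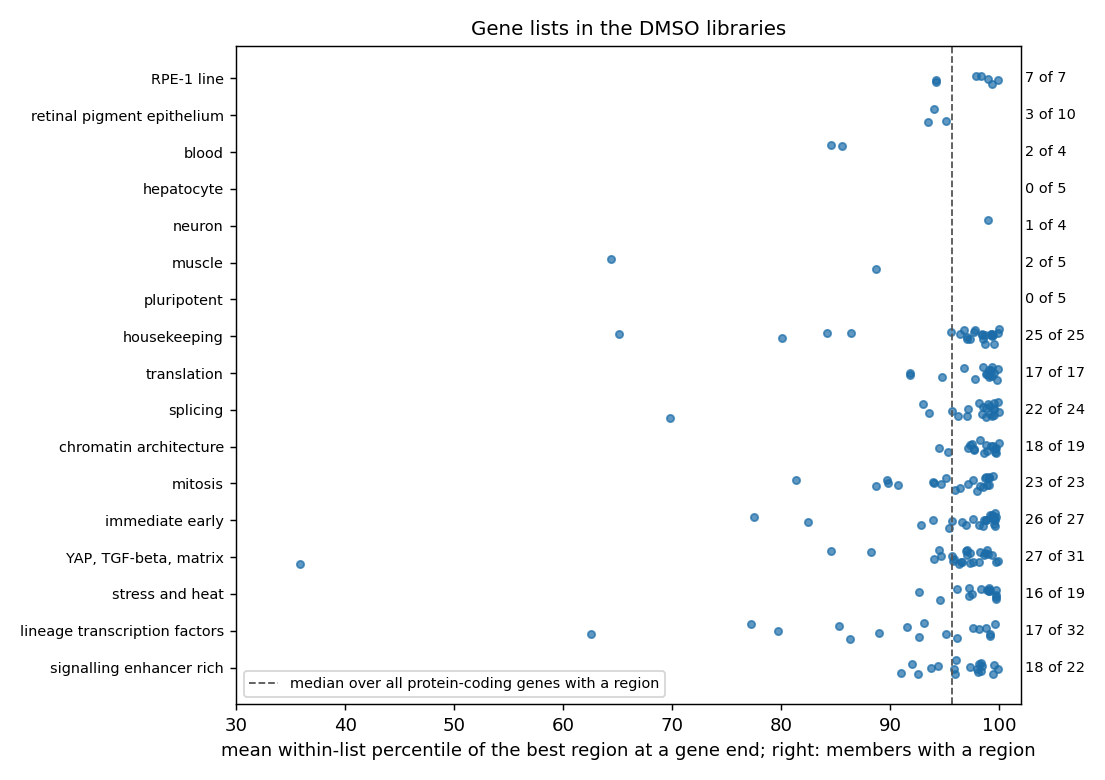
Mean within-list percentile of pileup of the best gene-end region (horizontal axis), with 1 point per gene that had one, for 17 gene lists; the number of genes with a region of those measured stands at the right. The dashed line is the median over all protein-coding genes with a region, 95.7.

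Inducible genes held high ranks. Of 27 immediate early genes, which respond to growth signals within minutes, 26 had a gene-end region, 19 were in the top 10% and 10 in the first 1000, where all genes give 5.48%. IER2 (rank 452) had pileups of 110.43, 112.46, 142.27 and 90.64, the AP-1 subunit FOSL1 (546) had 122.71, 106.07, 143.91 and 69.5, and the phosphatase DUSP1 (566) had 112.84, 107.24, 132.12 and 76.92. ATF3 was lowest at rank 22783, and ZFP36 had a peak in 1 list. The 2 listed starts of ATF3 lay in no region called in all 4 lists. Of 19 stress genes 16 were called at an end and 13 were in the top 10%, led by the stress transcription factor DDIT3 (135.23, 112.56, 146.88 and 80.8), HSPA1B and HSP90AA1. HSPA1A was lowest at rank 10623. It is nearly identical in sequence to HSPA1B over the coding part, which makes the split between them uncertain. The remaining 3, CDKN1A, DNAJB1 and TXNRD1, had no peak at their outermost ends and were called at a listed start inside the gene model. For CDKN1A, the p53 target that inhibits cyclin-dependent kinases, that region ranked 810 (103.63, 93.42, 122.46 and 72.63). Counting listed starts as well as ends, 19 of 19 stress genes were called, and of all genes 13006 (68.0%).

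Matrix and signalling genes of mesenchymal cells were called in part, where all genes give 65.3% called and 26.6% in the top 10%. Of 31 genes of the YAP, TGF-beta and matrix list 27 were called, 15 in the top 10%. The region ranked 122, with 152.36, 144.84, 191.91 and 115.54, lay at the far end of the receptor kinase gene AXL. A listed start of AXL, at chr19:41218426-41219763, lay in the region ranked 6945, outside the top 10%, with 42.66, 36.39, 48.03 and 31.43. SKIL, a repressor of SMAD signalling, ranked 444, and the matrix protein FN1 968 (99.24, 87.34, 121.42 and 68.7). CALD1 was lowest at its outermost ends, with 11.09, 11.4, 11.45 and 12.37, but a listed start inside the gene lay in the region ranked 2528 (64.46, 71.59, 78.62 and 59.13). LTBP2 had no peak at an end in any list. In the signalling list 18 of 22 were called and 10 were in the top 10%: TNFRSF12A, the receptor of TWEAK, ranked 125 (162.48, 136.14, 202.81 and 109.56), TRIB1 689 and HMGA2 822, and SNAI2 was lowest at rank 12245. Lineage transcription factors were called in 17 of 32 cases (53.1%), with 6 in the top 10% (18.8%). TEAD1, the DNA-binding partner of YAP, ranked 515 (117.33, 102.72, 139.98 and 79.81), the eye-field factor SIX3 1294, TEAD4 1391, and RAX was lowest at rank 32021, in a region at its far end. LHX2, NKX2-1, MYOD1, OLIG2 and TBX5 had no peak at an end in any list. PAX6, another eye factor, was called only at a listed start inside the gene (rank 2773; 72.58, 70.05, 76.73 and 43.66).

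Regions away from gene ends and starts were many but rarely high. Regions with no annotated gene end of any biotype and no listed start within 1 kb numbered 36271 (67.6%), and 60 of them were in the first 1000 and 559 in the top 10%. The highest was chr16:2904259-2906206, 4877 bp from FLYWCH2, at rank 36, with pileups of 185.49, 185.71, 240.1 and 141.26. Rank 56 was chr12:120316958-120318199, 3709 bp from SIRT4, with 185.77, 148.51, 251.83 and 147.33 and a fold enrichment of 6.70. Rank 58 was chr16:89994753-89996194, inside the pseudogene AFG3L1P, with 211.36, 144.36, 269.74 and 134.29. Inside protein-coding genes, the highest were in TNFRSF1A, the receptor of tumour necrosis factor (chr12:6335311-6337675, rank 90; 167.75, 158.01, 205.17 and 113.87), and FSTL3, which binds activin (chr19:679544-681050, rank 139). GPR84, MNT and PXN, the focal adhesion protein paxillin, held further ones at ranks 266, 271 and 291. The region at chr7:25862065-25862976 lay farthest from a protein-coding gene among the first 10 over no gene, 289222 bp from NFE2L3, at rank 232 (132.1, 118.2, 177.58 and 101.89). A region at chr4:190119464-190119704, 54070 bp from DUX4, lay near repeated sequence at the chromosome end and its level is uncertain. The other 6 of those 10 were at ranks 160 to 503, nearest to NID1, VAMP2, C2orf42, FOXK1, MEDAG and REEP3.

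Ranking by fold enrichment brought other places to the front. Fold and pileup were related with a Spearman correlation of 0.276 across the 53666 regions, and 216 of the first 1000 were shared. RNA45SN2 stayed first. The next 4 by fold were chr21:8253105-8253365, chr7:10035-10241, chr1:10069-10611 and chr17:83247146-83247381, with fold enrichments of 17.6, 18.1, 16.2 and 15.3 and pileup ranks of 1922, 1959, 186 and 2548. The last 3 lie at chromosome ends, within the first 11 kb of chromosomes 7 and 1 and at the last peak of chromosome 17, where sequence repeats between chromosomes. Among tRNA regions of chromosomes 5 and 17, TRIM41 had a fold of 2.96, BORCS6 3.23 and the region of ALOXE3 and HES7 2.67, below the median of 4.71 in the first 1000. The region ranked 19, on chromosome 5, had 5.09 and the region beside PER1 5.44, both above it. The median of all regions was 2.80.

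Chromosomes 10 and 12 had the densest regions. They held 32.6 and 35.2 regions per Mb, and the other 20 chromosomes 13.8 (chromosome 4) to 27.3 (chromosome 19). For distal regions alone it was 25.9 and 26.4 against 8.74 to 16.4. Peaks per Mb were above every other chromosome in each of the 4 lists, with 82.1 and 90.8 in replicate 1 against at most 69.5. On chromosome 10 the density was 4 to 22.9 regions per Mb in the bins of 10 Mb before 70 Mb and 52.8 to 64.6 from 90 to 130 Mb. It was 39.7 from 70 to 80 Mb, 27.2 from 80 to 90 Mb and 18.8 in the last bin, where peaks ended at 133.8 Mb. On chromosome 12 it was 50.6 in the first 10 Mb and 19.5 to 49.7 in the bins from 10 to 130 Mb. Of the first 1000 regions 137 (13.7%) were on chromosome 12, 103 (10.3%) on chromosome 19, which is rich in genes, and 85 (8.5%) on chromosome 10. The shares of these chromosomes in all regions were 8.74%, 2.98% and 8.13%, so chromosome 10 was near its share. Ranked by fold enrichment, the median percentile was 54.3 on chromosome 10 and 62.5 on chromosome 12, and the median of the other 20 was 68.9. RPE-1 is known to carry an extra part of the long arm of chromosome 10. Copy number was not measured here, and in these lists a gain of copies and greater accessibility cannot be told apart.

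The densest window of 1 Mb was 120 to 121 Mb on chromosome 10, with 92 regions around PLPP4 and WDR11, where the median window of 2608 held 17. It was followed by 116 to 117 Mb (85 regions, GFRA1 to SHTN1), 95 to 96 Mb (80, with PDLIM1), the first Mb of chromosome 2 (79, ACP1 and TMEM18) and 100 to 101 Mb of chromosome 10 (78, CHUK and SCD). Of these 5, only the window at 95 to 96 Mb, the first Mb of chromosome 2 and the window at 100 to 101 Mb held regions of the first 1000, with 2, 1 and 4. Windows with no protein-coding gene reached 61 regions at 17 to 18 Mb and 57 at 126 to 127 Mb of chromosome 12, 41 at 106 to 107 Mb of chromosome 14 over immunoglobulin heavy chain segments, 35 at 11 to 12 Mb of chromosome 22 and 32 at 108 to 109 Mb of chromosome 10. None of those 5 windows held a region of the first 1000.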

How the data were processed

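ATAC-seq peak lists of the 4 DMSO libraries were analysed, grouped by their titles. Lists of the other 4 libraries of the series were not used. Per the submitters' processing notes, MACS2 and hg38 were used; the aligner, read filters, any Tn5 shift and the calling settings are not given in the sources used here. The lists have no header. By their values they follow the column order of a MACS2 table without summits, made per library by the authors. Pileup is a signal (coverage) that the authors gave for each peak; how it was scaled from library to library is not given in the sources used here. Each peak's −log10 p and −log10 q, as the authors deposited them, set it against the background of its library. The deposited fold enrichment is the authors' ratio of signal to that background. These values were used only to rank or filter peaks within a list. Depth is unknown.

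Peaks on chromosomes 1 to 22 were merged, counted per list and ranked by mean percentile as described above. Genes came from a RefSeq GRCh38.p14 table of 59792 genes, 56756 of them on these chromosomes. Strand, starts and sequence came from its promoter table, which matched 15101 of 19126 protein-coding symbols. A reference genome was not used here. Named by rule were the first 20 gene-end regions, the first 10 elsewhere over genes and the first 10 over no gene, the first 5 by fold enrichment, the first 5 windows of 1 Mb with and without a protein-coding gene, the 3 highest and 1 lowest genes of each list, and all cell type markers; a few genes that met the rule are not reported here and were left out of the lists and their counts. Members and lists were chosen with earlier results of these data known. The distal class, the regions without tRNA genes, the tRNA counts and the printed sequences were chosen after the values were seen. No test was made, because pileup chose and ordered the regions and 1 group was described. Alternatives were a −log10 q of at least 5, lists of equal length, 50% coverage, peaks of at least 300 bp, windows of 100 bp and 2.5 kb, other ranking measures and fewer replicates. Python 3.11.15, numpy 2.4.6, pandas 2.3.3 and matplotlib 3.10.9 were used. Merging and overlaps differed from bedtools 2.31.1 in 0 cases, and on simulated data 200 of 200 planted regions among 20000 were recovered.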

Additional observations from a re-analysis of the deposited data

Results flagged for a closer look

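Over no gene lay 3.7% of the 1000 highest peaks of replicate 4, against 2.3% to 2.5% in the other 3 lists, a gap to the nearest list that is large for the range of 4 values. Among the 100 highest peaks of replicate 3, 31 held a tRNA gene, against 32 in each of the other lists, a difference of 1 peak. Over 21 measures compared in this way these 2 stood out, and chance gives about 1 in 20.

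Unplaced and unlocalised sequences, which were left out of the regions, held the highest pileups of all. The highest there was 1297.29 in replicate 2, and 1099.95, 1120.24 and 1076.98 in replicates 1, 3 and 4. On chromosomes 1 to 22 the highest peak of a list was 398.05 to 493.84. From 6 to 7 peaks of each list on those sequences exceeded the highest chromosomal peak of the same list. No control sample bears on these peaks, and which repeats they hold was not tested.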

How the results depend on the processing

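The number of regions called in every list moved most with the definition. The 53666 regions became 9160 when a −log10 q of 5 or more was required, 20429 where peaks had to cover 50% of a region, and 35416 with peaks of at least 300 bp. With the odd-numbered replicates alone it was 86398, with the even-numbered alone 84023, and with each replicate left out in turn 57113 to 68769, as fewer lists have to call a region. The 12490 protein-coding genes became 7376 with a −log10 q of at least 5 and 12511 to 12928 with a replicate left out. The gene-end share of the first 1000 regions, 79.9%, was 72.7% when ranked by fold enrichment, 77.4% with a window of 100 bp and 82.3% with 2.5 kb, and 79.4% to 80.5% with a replicate left out. The share over no gene, 2.5%, was 6.5% when ranked by fold enrichment and 3.2% by −log10 q, and 2.4% to 2.6% with a replicate left out. The 34 regions with a tRNA gene among the first 100 were 6 when ranked by fold enrichment and 33 to 34 with a replicate left out; the cause was not tested. That tRNA count and the repeat without chromosomes 10 and 12, which moved none of these 5 values beyond the limits used, were chosen after the data were seen. For the shares the limit was their SD over lists, and for counts it was a fold change. Chromosomes 10 and 12 hold 8.13% and 8.74% of all regions, so dropping them could not take the number of regions past its limit. Ranking by another measure keeps the same regions, so it can change only the percentiles of the 52 named regions. By fold enrichment their median percentile was 97.7 and the lowest 59.3, and all 52 moved by more than their SD over lists. By −log10 q 40 moved, and with a −log10 q of at least 5 required 51 moved. With each replicate left out in turn 0 moved, which was fixed in advance. Leaving out a single value cannot shift the mean of these values by more than their SD, so this says nothing about stability. No paired analysis was possible because 1 group of libraries was described and no result came from a test. Without read totals, a region missing from a list cannot be told from one too shallow to call.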
